A study of Hydractinia symbiolongicarpus with 45 samples.

Results

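A group of 200 gene models of the colonial cnidarian Hydractinia symbiolongicarpus was examined, chosen by levels of poly(A)+ RNA. Their mean levels were low in eggs and in embryos at 4 and 7 hours post fertilization (h). Among the larval stages sampled they were highest at 48 h. Levels are given in TPM, which is the estimated count of a gene model divided by its coding length and scaled to the same sum in each library, so that levels can be set side by side between genes. A gene was eligible when its mean was under 1 TPM in poly(A)+ libraries of eggs and of embryos at 4 and 7 h, and its mean at 48 h was at least 1.5 times the means at both 24 and 72 h. Of 22022 gene models, 506 copies with identical values were set aside. Of the 21516 left, 8691 were under 1 TPM at the early stages, and 956 met every condition. The 200 with the highest mean at 48 h were kept, and 2 of them have an identical copy with which they may share reads. The genes were thus chosen by their poly(A)+ levels in eggs, at 4, 7, 24, 48 and 72 h, so these levels are given as a description. The fit of 72 against 24 h given below is part of this description and is not read as a test.

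A Hydractinia embryo develops into a planula, a larva with a ciliated outer layer and an inner layer. During larval life the planula forms nerve cells, stinging cells and gland cells, and it becomes able to settle and metamorphose into a polyp when it meets a suitable surface, which for this species is often a shell carried by a hermit crab. Transcripts that first appear in larvae are made from the zygotic genome, in contrast to the mRNA that the egg receives from its mother. None of the 200 identifiers is among the 24 gene models predicted to encode H4K20 methyltransferases or the 15 that the study names in its text, and the RefSeq gene table used here matched 0 of the identifiers, so no gene name or function is given below.

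The series holds 45 libraries of wild-type whole eggs, embryos and larvae from a pair of breeder colonies, each library made from pooled animals of 1 collection group, called a clutch here. Poly(A)+ libraries were made from unfertilized eggs (clutches A, C and D), from embryos at 0.5 h and each hour up to 7 h (clutches A to D, 1 or 2 libraries a stage) and from larvae at 24, 48 and 72 h (clutches E and F, 2 libraries a stage). Embryos of clutches D and G were kept from shortly after fertilization in 20 µM Triptolide with 0.5% DMSO, or in 0.5% DMSO without it, until 7 h (2 libraries each). Triptolide blocks transcription by RNA polymerase II. Eggs and embryos were also sequenced after depletion of ribosomal RNA (rRNA), from the same samples (18 libraries, untreated 7 h from clutch B only), whereas larvae have poly(A)+ libraries only. All larvae came from clutches that gave no earlier sample, so stage and clutch cannot be told apart between larvae and embryos. The 6 larval libraries held between 10802851 and 16424648 counts. Larval samples of all 3 stages were not fully homogenized, per the labels, and whether this bears on larval levels was not tested. In bulk samples, fewer cells of a type and less RNA per cell cannot be told apart.

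The 200 genes spanned a wide range of levels at 48 h, from a mean of 1554 TPM to a mean of 1.36 TPM, with a median of 6.44 TPM. Means were at least 100 TPM for 14 genes and at least 10 TPM for 77 genes, and they were under 5 TPM for 91. The 3 most abundant genes made up 39.5% of the summed TPM of all 200 at 48 h, and the 10 most abundant 62.6%. The summed level was 3316 TPM in clutch E and 2147 TPM in clutch F at 24 h, 7769 and 7643 TPM at 48 h, and 3254 and 4066 TPM at 72 h. Both clutches thus had their highest sum at 48 h, and this sum was under 1% of all protein-coding transcripts (0.777% in clutch E and 0.764% in clutch F). In each of the 19 poly(A)+ libraries before 24 h the sum lay between 8.62 and 51.4 TPM.

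**Figure D1:**
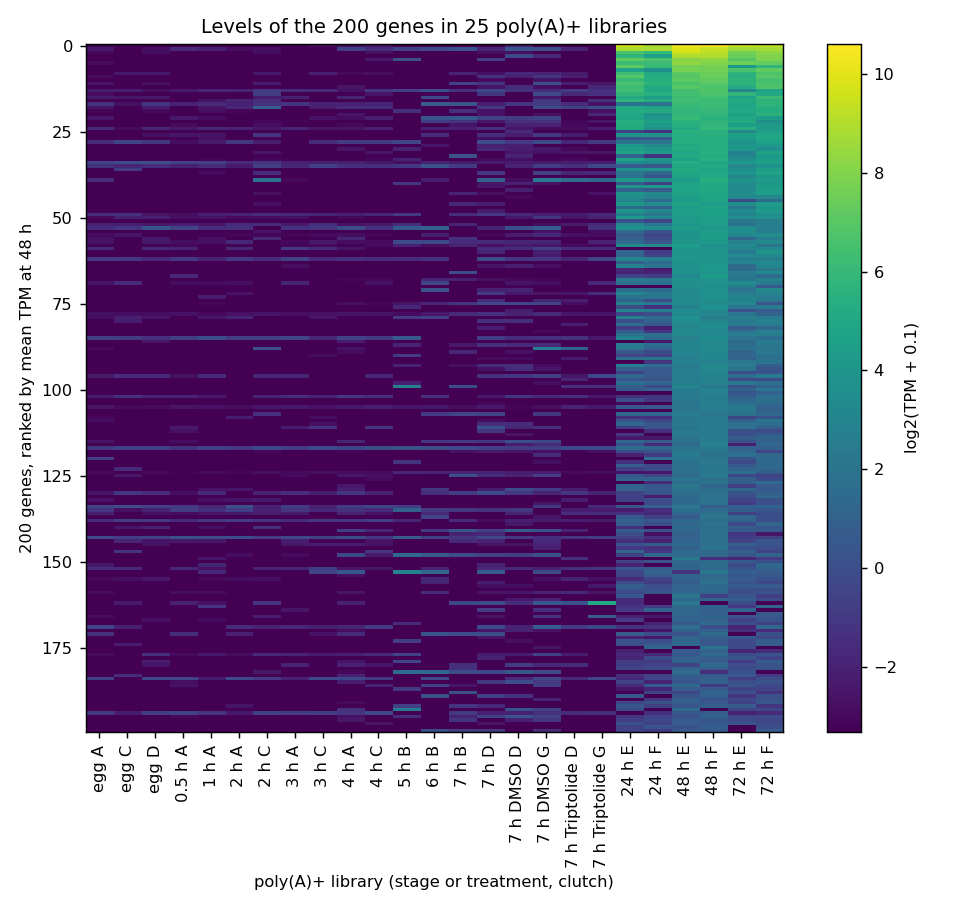
Each row is a gene, ranked by its mean TPM at 48 h, each column a poly(A)+ library, and colour gives log2(TPM + 0.1). The 6 larval libraries at the right stand apart from the 19 earlier ones, and the lower rows are dim even at 48 h, where 91 genes have means under 5 TPM.

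HyS0030.56, the most abundant gene at 48 h, was at 1561 TPM in clutch E and 1546 TPM in clutch F at that stage. It was at 895 and 470 TPM at 24 h and at 775 and 621 TPM at 72 h. Both 48 h libraries lay above all 4 other larval libraries, and the gene had no higher level than 0.125 TPM in any poly(A)+ library before 24 h. HyS0068.15 was at 462 and 459 TPM at 24 h, at 956 and 644 TPM at 48 h, and at 394 and 424 TPM at 72 h (clutch E before clutch F here and in the sentences that follow). Its 2 clutches were close at 24 and 72 h and differed most at the peak.

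HyS0017.49 was at 98.5 and 61.6 TPM at 24 h, 771 and 603 TPM at 48 h, and 206 and 296 TPM at 72 h. HyS0019.110, with a coding length of 312 bases, was at 54.3 and 23.3 TPM at 24 h, 496 and 493 TPM at 48 h, and 180 and 251 TPM at 72 h. HyS0019.270, with a coding length of 321 bases, was at 24.8 and 12.7 TPM at 24 h, 212 and 195 TPM at 48 h, and 97.8 and 147 TPM at 72 h. These 3 genes had little RNA at 24 h, between 7.85% and 11.7% of the 48 h mean, and kept 36.5% to 60.0% of it at 72 h. HyS0021.91 had the opposite shape, with 140 and 64.3 TPM at 24 h, 203 and 207 TPM at 48 h, and 15.9 and 58.0 TPM at 72 h.

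The next levels were those of HyS0029.22, HyS0061.29, HyS0055.81 and HyS4649.1. HyS0029.22 was at 145 and 105 TPM, then 271 and 310 TPM, then 116 and 234 TPM over the 3 larval stages. HyS0061.29 was at 71.9 and 74.0 TPM, then 319 and 250 TPM, then 182 and 161 TPM. In both genes the 48 h libraries lay above the rest without overlap. HyS0055.81 was at 80.8 and 34.5 TPM, then 139 and 171 TPM, then 51.3 and 106 TPM, also without overlap. HyS4649.1 was at 124 and 39.3 TPM, then 122 and 172 TPM, then 42.0 and 128 TPM. In HyS4649.1 the stages overlapped, and clutch E was no higher at 48 than at 24 h.

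**Figure D2:**
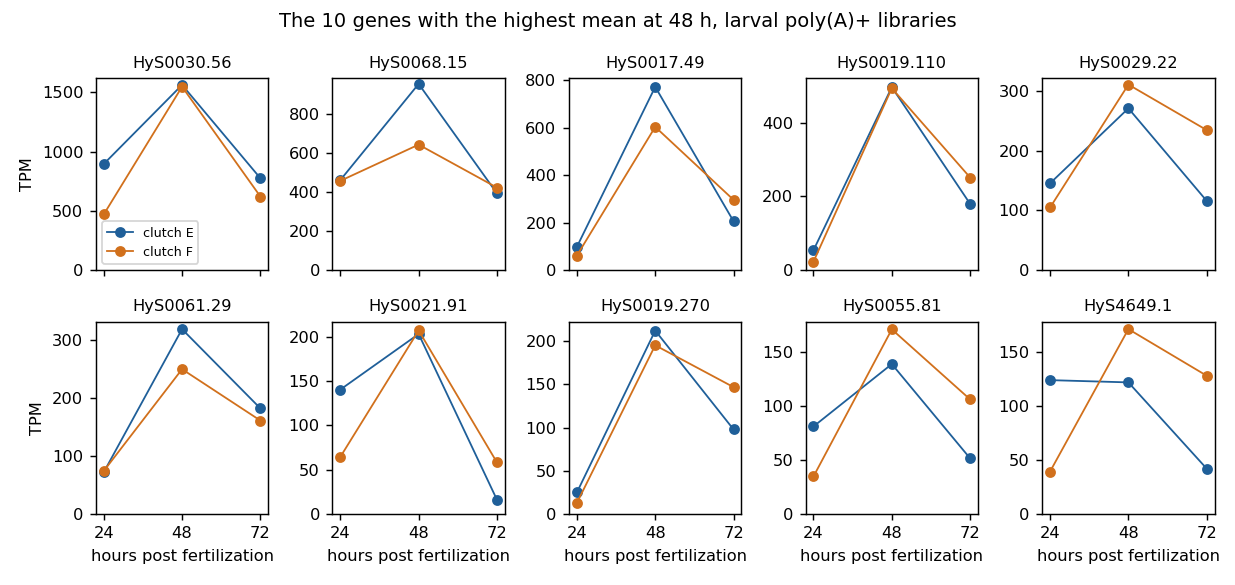
TPM of the 10 most abundant genes at 24, 48 and 72 h, with a point for each poly(A)+ library and lines joining the libraries of clutch E (blue) and of clutch F (orange). HyS0017.49, HyS0019.110 and HyS0019.270 start low and stay above their 24 h level at 72 h, HyS0021.91 falls to 15.9 and 58.0 TPM, and HyS4649.1 rises to 48 h in clutch F only.

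Around the 48 h peak the genes differed more before it than after it. The 24 h mean was under 1 TPM for 88 genes, between 1 and 5 TPM for 62 and at least 5 TPM for 50, and 6 genes had 0 counts in both 24 h libraries. The median 24 h mean was 25.8% of the 48 h mean, and 55 genes were under 10%. At 72 h the median was 48.1% of the 48 h mean, 161 genes were over 33%, and 2 were under 10%. A late start with a slow fall (under 10% at 24 h and over 33% at 72 h) was seen in 34 genes, and the reverse (over 33% at 24 h and under 33% at 72 h) in 8.

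Most of the peaks were modest. The 48 h mean was between 1.50 and 8.84 times the higher of the 24 and 72 h means, with a median of 1.91 times, and it was at least 2 times that level for 84 genes and at least 5 times for 11. The sharpest peaks among genes found at both other stages lay at low levels. HyS0071.9 was at 0.144 and 0 TPM at 24 h, 1.52 and 2.17 TPM at 48 h, and 0.173 and 0.245 TPM at 72 h. HyS0100.18, the most abundant of the 5 sharpest of these, was at 0.535 and 1.40 TPM, then 6.18 and 7.58 TPM, then 0.963 and 1.14 TPM. Neither gene overlapped between 48 h and the other larval stages, and HyS0100.18 was at 0 in every poly(A)+ library before 24 h. HyS0024.88, with 0 counts at 24 h, had a ratio of 8.28 that rested on clutch E (5.01 TPM, against 0.251 TPM in clutch F at 48 h). The other sharp peaks were HyS0076.91 (1.34 and 1.55 TPM at 48 h), HyS0042.147 (1.89 and 2.00 TPM) and HyS0004.358 (2.03 and 3.65 TPM). The peak of HyS0076.91 is sharp among larval stages only. Its poly(A)+ means were 0.344 TPM in eggs and 0.570 TPM at 4 h, against 0.139 and 0.182 TPM at 24 and 72 h. In rRNA-depleted RNA at 5 h it was at 1.80 TPM.

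The end of the ranking carried no natural break. The 3 lowest genes kept, HyS0025.182, HyS0042.19 and HyS0069.31, had both libraries between 1.05 and 1.69 TPM at 48 h. The next genes outside, HyS0016.72, HyS0019.23 and HyS0061.25, had 48 h means of 1.36, 1.34 and 1.32 TPM. In HyS0069.31, 1 library at 72 h (1.59 TPM, clutch F) was above both 48 h libraries.

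The values of each clutch, which made up the means that chose the genes, are described next. Clutch E by itself met the 1.5-fold condition for 141 genes, clutch F for 150, both for 95 and neither for 4. Both 48 h libraries were above all 4 other larval libraries for 164 genes, among them 72 of the 77 genes with a mean of at least 10 TPM. Over all 22022 gene models this held for 4.60%, and since the choice of genes used these levels, nothing is read from the difference. The rest included genes that 1 library carried. HyS0034.129 was at 4.51 TPM in clutch E and at 0 in clutch F at 48 h. HyS0005.431 was at 2.90 and 0 TPM. HyS0024.88 was at 5.01 and 0.251 TPM, so that all 3 owe their place to clutch E. In the other direction, HyS0042.196 was at 0 in clutch E and at 3.80 TPM in clutch F. HyS0001.153 was at 0.335 and 4.62 TPM, and HyS0041.95 was at 0.631 and 2.83 TPM.

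Of the 109 genes with a mean of at least 5 TPM at 48 h, 94 were within 1.5-fold between clutches and 3 differed more than 2-fold. Of the 50 genes at that level at 24 h, 21 were within 1.5-fold and 11 differed more than 2-fold, and at 72 h the counts were 31 and 21 of 75. The direction of the difference turned over time. Among the 77 genes of at least 10 TPM at 48 h, 65 were higher in clutch E at 24 h, 58 were higher in clutch F at 72 h, and 50 (64.9%) did both. Over 9065 gene models with a larval mean of at least 10 TPM, 58.6% were higher in clutch E at 24 h, 50.6% were higher in clutch F at 72 h, and 32.2% did both. The genes share their libraries, and each stage has 1 library a clutch, so these are descriptions of 6 libraries and no test was made.

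**Figure D3:**
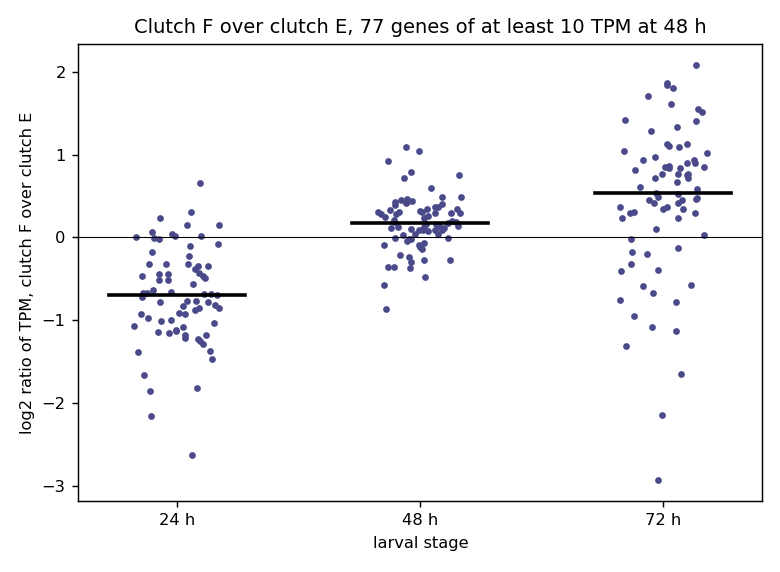
Log2 ratio of TPM in clutch F over clutch E for the genes of at least 10 TPM at 48 h, by larval stage, with a point per gene and a bar at the median. Medians are -0.70 at 24 h, 0.18 at 48 h and 0.54 at 72 h, and the spread is narrowest at 48 h. At 24 h 75 of the 77 genes are drawn, the others having a value of 0.

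Because the 24 and 72 h levels each entered the choice of genes, against 48 h, the edgeR fit only describes their difference. It is not read as a test of the 200 genes. In the edgeR fit of all genes, 66 of the 200 (33%) had a difference with an adjusted p under 0.05 towards 72 h and 0 towards 24 h. Over all 18928 genes fitted, 13.4% lay past that limit towards 72 h and 15.0% towards 24 h. At an unadjusted p under 0.05 the counts for the 200 were 84 and 2, and DESeq2 gave 33, 27 of them shared, and 0. Among 2096 other genes that were also under 1 TPM at the early stages and had at least the 48 h mean of the lowest of the 200, the shares were 20.3% and 15.2%. The median log2 difference of 72 over 24 h was 1.28 in the 200 genes, 1.24 when the 6 genes with 0 counts at 24 h stood at their lower bound, 0.12 in those 2096 genes and 0 over all genes. Nothing about the 200 genes is read from these counts.

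With library size alone as the scaling, which moved the median over all genes to -0.16 on the log2 scale, 57 lay past the limit towards 72 h, all of them among the 66, and 2 towards 24 h. Over all genes this scaling gave 1901 and 3711, against 2536 and 2841 with TMM factors. The count towards 72 h fell to 40 without clutch F at 24 h and to 41 without clutch F at 72 h, with 1 and 3 towards 24 h, and 1 lay towards 24 h without clutch E at 72 h.

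Among the most abundant genes, the log2 difference of 72 over 24 h was 2.13 ± 0.30 in HyS0017.49 (edgeR, standard error, n = 2 libraries a stage). It was 2.95 ± 0.38 in HyS0019.110, 3.19 ± 0.40 in HyS0019.270, 1.69 ± 0.22 in HyS0061.29 and 0.98 ± 0.33 in HyS0029.22, whose libraries at the 2 stages overlapped. It was smaller or negative in HyS0030.56 (0.49 ± 0.31), HyS0068.15 (0.29 ± 0.31, though its mean TPM was lower at 72 than at 24 h), HyS0055.81 (0.94 ± 0.38), HyS4649.1 (0.57 ± 0.49) and HyS0021.91 (-0.95 ± 0.55).

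The largest differences past the limit were in genes with no or almost no counts at 24 h. HyS0012.19 had 0 counts in both 24 h libraries, 15.7 and 16.1 TPM at 48 h and 7.09 and 8.71 TPM at 72 h, at least 21.7-fold above 24 h. HyS0002.19 also had 0 counts at 24 h, 4.45 and 5.78 TPM at 48 h and 4.65 and 1.93 TPM at 72 h, at least 65.8-fold above 24 h. In HyS0002.19, clutch E was as high at 72 as at 48 h whereas clutch F had fallen. HyS0002.460 and HyS0072.28, at 0 counts at 24 h too, were at least 15.9-fold and 9.40-fold above it. HyS0038.119 had 1 count at 24 h against 228 at 72 h.

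**Figure D4:**
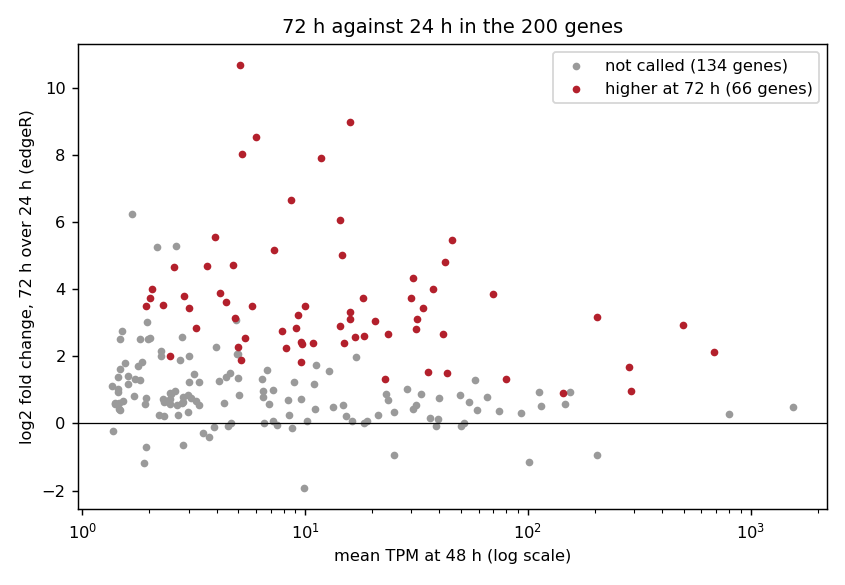
Log2 fold change of 72 over 24 h (edgeR, TMM-scaled) against the mean TPM at 48 h on a log axis, a point per gene. The 66 genes with an adjusted p under 0.05 (red) run from 0.89 to 10.68, at 48 h means from 1.92 to 687 TPM. The fit is a description only, since 24 and 72 h levels helped choose the genes. Values of genes with 0 counts at 24 h depend on the prior count of the fit.

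The libraries before 24 h outside the 13 poly(A)+ libraries that chose the genes are described next. Many of these other libraries share a sample or a clutch with those 13, so they are not independent of the choice. No share over all genes is set beside the counts that follow, so nothing about the 200 genes is read from them. Of the 200 genes, 25 reached 1 TPM in at least 1 of the 12 other poly(A)+ libraries and 6 reached 5 TPM. Counts above 0 were more common, with 102 genes in the 7 h DMSO library of clutch G. In the 18 rRNA-depleted libraries 34 reached 1 TPM, 4 reached 5 TPM and 43 had 0 counts throughout, and 13 genes reached 1 TPM in both libraries of the same sample. Each poly(A)+ library before 24 h held between 0 and 10 genes at 1 TPM, and the shallowest, 5 h of clutch B with 3107733 counts, was among the 2 with 10. In the larval libraries, which helped choose the genes, 103 to 115 genes reached 1 TPM at 24 h, 193 to 195 at 48 h and 149 to 157 at 72 h. The contrast with earlier stages follows from the choice, and nothing is read from it.

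The highest values in untreated embryos included those of short gene models in shallow libraries and of a longer model in deeper ones. HyS0001.153, with a coding length of 210 bases, was at 7.38 TPM in poly(A)+ RNA at 5 h and at 8.03 TPM in rRNA-depleted RNA at 7 h, both of clutch B. HyS0018.99, with 264 bases, was at 6.80 and 4.34 TPM at 5 h in the poly(A)+ and rRNA-depleted library. The larval peak of HyS0018.99 was 8.26 and 4.69 TPM. In the poly(A)+ library at 5 h, a shallow one, some genes were above their own 48 h mean. These included HyS0001.153 (48 h mean 2.48 TPM) and HyS0018.99 (6.48 TPM). HyS0005.431 (5.12 against 1.45 TPM) and HyS4448.1 (3.05 against 1.67 TPM) were others. HyS0001.30, with 2196 coding bases, was at 3.74 and 5.38 TPM at 2 h in the poly(A)+ and rRNA-depleted library of clutch C. HyS0079.41, with 16143 coding bases, was found in all eggs. It was at 1.51, 2.05 and 2.52 TPM in rRNA-depleted eggs and at 0.610, 0.927 and 0.945 TPM in poly(A)+ eggs of clutches A, C and D, and both libraries of the same egg sample ranked in the same order. Its larval levels were 11.1 and 9.78 TPM, then 40.1 and 31.2 TPM, then 19.2 and 24.7 TPM. HyS0026.137, also among the 3 highest in rRNA-depleted eggs, was at 1.27, 0 and 0.374 TPM there.

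Triptolide was compared with DMSO at 7 h to ask which of the low early levels depended on treatment. In poly(A)+ libraries 14 of the 200 genes (7%) were lower with Triptolide and 0 were higher (edgeR adjusted p under 0.05), against 18.9% lower and 5.04% higher over all 18928 genes tested. All 200 entered the test through their larval counts, and 54 of them had at least 10 counts over the 4 treated libraries. Tested in the 4 treated libraries alone, with this minimum, 17 of these 54 were lower and 1 was higher. Over all genes that fit gave 4784 lower and 2610 higher. Since a gene can pass the minimum through its DMSO counts alone, neither share is read as a property of the 200 genes. In the fit of all libraries, at an unadjusted p under 0.05, 22 were lower and 3 higher, and DESeq2 found 13 lower and 0 higher. The count of lower genes was 8 without DMSO of clutch G, 6 without Triptolide of clutch D and 5 without Triptolide of clutch G. With the clutch as a block, or without Triptolide of clutch D, 1 gene was higher.

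All 14 genes had DMSO levels of at most 1.56 TPM. HyS0042.80, with 11049 coding bases, was at 0.674 and 0.603 TPM with DMSO (clutches D and G) and at 0.040 and 0 TPM with Triptolide, from 207 against 6 counts. This was lower by 4.95 ± 1.00 on the log2 scale (edgeR adjusted p = 0.0014). In larvae the gene was at 7.59 and 5.49 TPM, then 10.4 and 9.95 TPM, then 9.30 and 1.22 TPM, so its clutches were close at 48 h and far apart at 72 h. HyS0068.15, the gene ranked 2 at 48 h, was at 1.24 and 0.942 TPM with DMSO and at 0.159 and 0 TPM with Triptolide (edgeR adjusted p = 0.00477). In rRNA-depleted RNA of the same samples its means were 0.0588 TPM with DMSO and 0.0984 TPM with Triptolide (log2 difference 0.36 ± 1.71). HyS0013.338, also of the 14, had a positive difference there too (0.37 ± 1.93). The others of the 14 that were tested there had negative ones. HyS0022.182 was at 1.50 and 1.06 TPM with DMSO and at 0.152 and 0 TPM with Triptolide (edgeR adjusted p = 0.00544).

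In 8 of the 14 genes Triptolide libraries held 0 counts, and 6 had fewer than 20 counts over both DMSO libraries. HyS0048.31 was at 1.17 and 0.576 TPM with DMSO, at least 11.4-fold above Triptolide (edgeR adjusted p = 0.00257). HyS0023.263 was at least 8.97-fold, HyS0009.341 at least 6.00-fold, HyS0004.198 at least 5.70-fold and HyS0016.183 at least 5.10-fold above it. HyS0016.183, HyS0023.263, HyS0042.80 and HyS0048.31 were lower under all 12 alternatives.

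**Figure D5:**
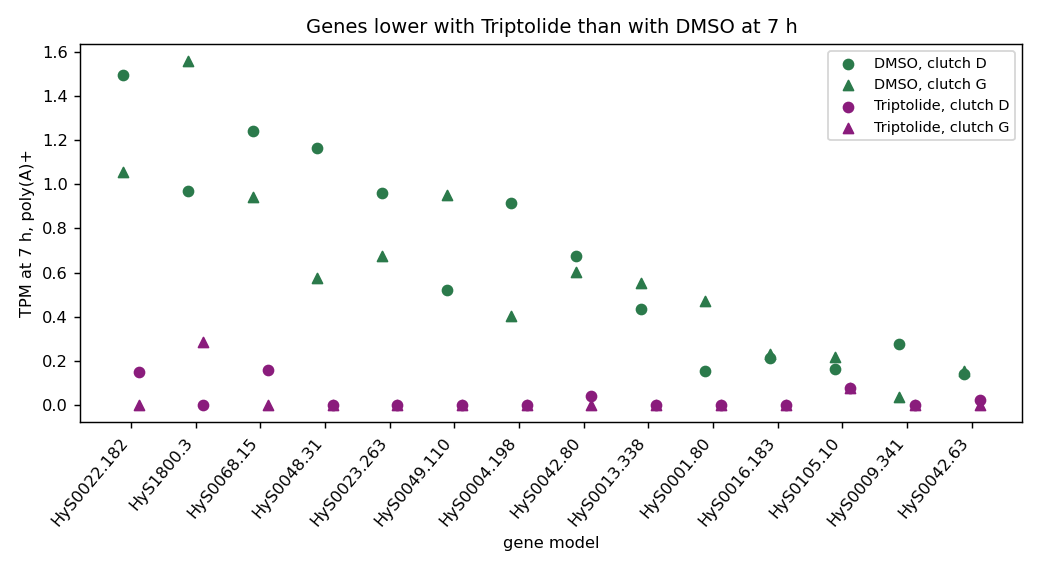
TPM at 7 h in poly(A)+ RNA of the 14 genes lower with Triptolide, ordered by their DMSO mean, with green points for DMSO and purple points for Triptolide, circles for clutch D and triangles for clutch G. The DMSO points run from 0.0374 to 1.56 TPM, and 8 genes have both Triptolide points at 0.

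The rRNA-depleted libraries, made from the same treated samples, were not used to choose the genes. Only 65 of the 200 genes had enough counts to be tested there, and the other 135 were not. Triptolide against DMSO gave 3 lower and 1 higher (edgeR), against 14.5% lower and 17.9% higher over all 15944 genes tested. With RLE factors the 200 genes gave the same counts, whereas all genes gave 1252 higher and 2748 lower, against 2847 and 2307 with TMM factors. HyS0042.80 was at 1.34 and 0.842 TPM with DMSO and at 0.035 and 0.013 TPM with Triptolide, lower by 5.57 ± 0.86 on the log2 scale (edgeR adjusted p = 0.00146). HyS0022.182 was at 0.709 and 2.74 TPM with DMSO against 0.134 and 0 TPM (edgeR adjusted p = 0.0356), and HyS0328.1 at 2.12 and 1.51 TPM against 0 in both (at least 6.33-fold, edgeR adjusted p = 0.0251). DESeq2, which gave no adjusted p for HyS0328.1, and leaving out DMSO of clutch G or either Triptolide library, gave 1 lower gene, and the block or leaving out Triptolide of clutch D gave 2 higher.

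HyS0019.125 was the gene that was higher with Triptolide in rRNA-depleted RNA. It was at 0.569 and 0.439 TPM with Triptolide and at 0 in both DMSO libraries, at least 4.12-fold higher (edgeR adjusted p = 0.0055). In poly(A)+ RNA it was at 0.129 and 0.101 TPM with Triptolide and at 0.137 and 0.104 TPM with DMSO (edgeR adjusted p = 1), and the difference between library types was not tested. HyS0019.125 had low counts in every egg library, with 0.904, 0.536 and 0.636 TPM in rRNA-depleted eggs and 0.235, 0.454 and 0.441 TPM in poly(A)+ eggs. Its larval peak was 2.70 and 3.28 TPM.

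Embryos in DMSO at 7 h were also compared with eggs in rRNA-depleted RNA, to see which of the genes had RNA at gastrulation that does not depend on selection by the poly(A) tail. Of the 65 genes tested, 15 were higher and 2 lower (edgeR), against 26.5% higher and 24.2% lower over all 15944 genes. A gene with 0 counts in eggs passed the minimum only through its later counts, which holds for 10 of the 15, and 11 had fewer than 20 counts in the DMSO libraries. With the clutch as a replicate block 2 were higher. DESeq2 called 2 of the 15 higher genes and not 4, and gave no adjusted p for the other 9. Leaving out egg A, C or D gave 9, 8 and 8. Leaving out DMSO of clutch D gave 5 higher and 1 lower. This comparison shares its DMSO libraries with that of Triptolide, and its egg libraries came from the egg samples whose poly(A)+ libraries helped choose the genes. Its counts are thus given as a description.

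Low levels in the same egg samples helped choose the genes, and genes with 0 egg counts entered the fit only through later libraries. The folds and adjusted p values over eggs that follow are therefore a description. HyS0042.80 was higher under all 13 alternatives of this comparison. It had 0 counts in the 3 rRNA-depleted eggs and 124 in the DMSO libraries, at least 101-fold higher (edgeR adjusted p = 4.55e-05). In the untreated series it was at 0.106 and 0.033 TPM at 4 h (clutches A and C), and at 0.275, 0.375 and 0.203 TPM at 5, 6 and 7 h (clutch B). HyS0022.182 was at least 31.6-fold higher (edgeR adjusted p = 0.00392), HyS0439.3 at least 10.9-fold (0.0242) and HyS0048.31 at least 9.77-fold (0.0447), and these 3 calls were lost with the replicate block. DESeq2 did not call HyS0022.182 and gave no adjusted p for HyS0439.3 and HyS0048.31. HyS0017.42 passed (edgeR adjusted p = 0.0178) with 4.65 TPM in clutch G and 0 in clutch D, and had no fold change left without the clutch G library, and its call too was lost with the block and with DESeq2. HyS0019.125 was lower, at least 5.87-fold (edgeR adjusted p = 0.00132), and so was HyS0079.41, at 0.860 and 1.12 TPM against 1.51 to 2.52 TPM (log2 difference -0.77 ± 0.22, edgeR adjusted p = 0.0121).

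The 200 genes had a median coding length near that of all gene models and were largely scattered over the assembly. Their median coding length was 1056 bases, against 1062 bases over all gene models, and 23.5% were under 600 bases, against 25.3%. They were shorter than the 14596 gene models with a larval mean of at least 1 TPM, whose median was 1272 bases, with 17.2% under 600 bases. The same rule with 24 or 72 h as the peak gave 1891 and 1214 eligible genes, and the 200 highest of these had median lengths of 1218 and 618 bases. They lay on 82 scaffolds, and 14 of them formed 7 pairs of neighbouring numbers, none longer, against 4 and 5 pairs in the 24 and 72 h sets. In each sentence that follows the levels are means over both clutches at 24, 48 and 72 h. HyS0019.109 and HyS0019.110 were at 0.924, 30.5 and 13.4 TPM and at 38.8, 495 and 216 TPM. HyS0068.99 and HyS0068.100 were at 1.14, 37.6 and 13.2 TPM and at 0.145, 14.3 and 7.42 TPM. Members of these pairs shared a late start, whereas HyS0031.64 (1.45, 15.8 and 9.25 TPM) and HyS0031.65 (5.25, 25.1 and 1.89 TPM) fell at different rates after the peak. The strand and distance of neighbours were not analysed here.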

How the data were processed

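RNA was isolated from whole wild-type embryos and larvae and sequenced as strand-specific paired-end libraries. The authors trimmed reads with Trim Galore 0.6.6 and cutadapt 1.15, pseudo-aligned them with kallisto 0.46.1 to the Hsym v1.0 protein-coding transcriptome, and deposited estimated counts per gene model without normalization, with 1 table of 22022 gene models by 45 libraries. The tool notes also name DESeq2 4.0.3, for comparisons that are not used here. All lengths are multiples of 3, so they are coding lengths, and reads from untranslated regions may enter the counts without entering the length. Poly(A)+ libraries held 3107733 to 32015981 counts, rRNA-depleted ones 3503063 to 20464403, and TPM, computed from counts and lengths over all gene models, are least precise in the shallowest ones.

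Members and comparisons were chosen with earlier results of these data known. For tests, counts were rounded and fitted with edgeR 4.0.16 (R 4.3.3, TMM, quasi-likelihood F test, Benjamini-Hochberg at 0.05) across all genes with at least 10 counts, with 25 poly(A)+ libraries in 14 groups (18928 genes, 11 residual degrees of freedom) and 18 rRNA-depleted libraries in 11 groups (15944 genes, 7 residual degrees of freedom). The procedure was tested on simulated data, in which the changed genes had an expected count of at least 10 in a library of mean size. The simulation therefore does not cover calls for genes near 0 counts. Calls for 72 against 24 h are given as a description, since both stages entered the choice of genes. So are calls for DMSO at 7 h against eggs, since poly(A)+ libraries of the same egg samples entered it. A gene for which DESeq2 gave no adjusted p counts as neither kept nor lost. Where a group held 0 counts, folds are bounds against a floor of 3 counts over the group, which covers counting error only. The named genes are the 10 highest at 48 h, the 5 sharpest peaks among genes above 0 at 24 and 72 h, the 3 lowest members and 3 genes just outside, the 3 highest and lowest clutch ratios, the 5 largest changes per test and direction, the 3 highest in rRNA-depleted eggs and the 3 highest in poly(A)+ libraries before 24 h. Genes outside these sets, such as HyS0001.30 and HyS0105.10, were chosen after their values were seen.

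Clutch letters mark the collection group, per the labels, so same-lettered samples are paired. The correlation across genes of deviations from group means between same-lettered samples was -0.14 for 24 and 48 h, -0.05 for 24 and 72 h, -0.05 for 48 and 72 h, 0 for DMSO and Triptolide after poly(A)+ selection and 0.01 after rRNA depletion. Alternatives were RLE factors, library size alone, filterByExpr, no minimum count, the clutch as a replicate block, identical models kept once, DESeq2 1.42.0, the compared groups alone, and leaving out each library. Plots were made in python 3.11.15 with matplotlib 3.10.9. The 2 pilot libraries entered no test.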

Additional observations from a re-analysis of the deposited data

Results flagged for a closer look

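The 2 pilot libraries at 1 h entered no comparison, and 6 gene values in them, among those with more than 3 counts, lay above the highest of the 3 poly(A)+ egg libraries. In the unselected pilot library, HyS0079.41 was at 1.69 TPM (10 counts), against at most 0.945 TPM in poly(A)+ eggs. The 3 rRNA-depleted egg libraries, which were not made by poly(A)+ selection either, held 1.51 to 2.52 TPM of this gene. In the poly(A)+ pilot library, HyS2950.1 was at 1.16 TPM (egg at most 0.543), HyS0019.125 at 0.819 TPM (0.454), HyS0004.507 at 0.624 TPM (0.531), HyS0079.37 at 0.435 TPM (0.144) and HyS0105.10 at 0.0749 TPM (0.053). These values rest on 4 to 21 counts per gene, and there is 1 pilot library of each kind, so none was tested. No group held 4 or more libraries, so no check for a library far from the rest of its group could be made.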

How the results depend on the processing

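Of 397 values of named genes under the alternatives, 336 kept their direction and their side of the threshold, 61 kept their direction or fell to a log2 change of 0 without passing, and 0 reversed. For 72 against 24 h, the counts of genes higher were 33 with DESeq2 and 40 to 59 on leaving out a library, against 66, and the counts lower were 2 with library size alone, 1 with no minimum count and 0 to 3 on leaving out a library, against 0. For Triptolide in poly(A)+ libraries, 1 gene was higher with no minimum count, with the replicate block and in the compared groups alone, and 0 to 1 on leaving out a library, against 0, and 5 to 12 were lower on leaving out a library, against 14. In rRNA-depleted libraries, 2 were higher with Triptolide with no minimum count, with the block and in the compared groups alone, and 1 to 2 on leaving out a library, against 1, and 1 was lower with DESeq2, 6 in the compared groups alone and 1 to 2 on leaving out a library, against 3. For DMSO against eggs, 2 were higher with the replicate block and with DESeq2 and 5 to 10 on leaving out a library, against 15, and 1 to 2 were lower on leaving out a library, against 2. The paired fit with the clutch as a replicate block changed no other count by more than 1.5 times (57 higher at 72 h). The causes were not tested, and the counts for 72 against 24 h are a description only, since both stages helped choose the genes. The counts for DMSO against eggs are a description too, since the egg samples helped choose the genes. A group left with 1 library was assumed to vary like the other groups.

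Of the 200 genes, 117 were still among the 200 by the rule when larvae of clutch E alone were used, 95 with clutch F alone, and 84 met a ratio of at least 2. TMM-scaled levels kept 170 and an early limit of 0.5 TPM kept 175. The libraries of clutch B at 5 to 7 h and the rRNA-depleted library at 0.5 h held 3107733 to 5262080 counts. In treated embryos, 6 of the 14 genes lower with Triptolide in poly(A)+ RNA and 11 of the 15 higher with DMSO than in eggs rest on fewer than 20 counts in the higher group.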

Other observations

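Some of the larval genes differed in level before 24 h between samples of the same group, in most cases in both libraries made from the sample. For HyS0017.42 the libraries of the clutch G Triptolide sample disagreed. HyS0034.129 was at 35.1 TPM (292 counts) in the poly(A)+ library and at 21.3 TPM (95 counts) in the rRNA-depleted library of Triptolide-treated embryos of clutch G. It was at most 1.30 TPM in the other poly(A)+ libraries before 24 h, and among larvae it was counted in clutch E only. Triptolide against DMSO gave this gene an adjusted p of 0.0562 after poly(A)+ selection and of 0.0595 after rRNA depletion (edgeR), with the Triptolide libraries of clutch D at 1.04 and 0.204 TPM.

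HyS0001.30, at 12.1 to 42.2 TPM in larvae, was at 3.74 and 5.38 TPM in the poly(A)+ and rRNA-depleted libraries of the 2 h sample of clutch C, and at 0 in both libraries of clutch A at that time. It was at 5.23 and 4.31 TPM with DMSO in clutch G, and at 0.036 and 0 TPM with DMSO in clutch D. With Triptolide it was at 3.09 and 3.26 TPM in clutch D and at 2.45 and 3.53 TPM in clutch G, so it was not confined to 1 clutch. HyS0017.42 was at 6.43 and 4.65 TPM with DMSO in clutch G and at 0 in both libraries of clutch D, while with Triptolide it was at 2.18 and 1.31 TPM in clutch D and at 0 and 2.13 TPM in clutch G. Each of these differences lies between samples of 1 group and was not tested.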
